A study of Mus musculus with 6 samples.

Results

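The MHC class I presentation genes were followed in B cells from the spleen of BALB/c mice, wild type, cultured for 4 hours with the TLR9 agonist CpG (ODN 1826, 10 μg/ml) or left unstimulated. The members were taken by symbol, with no threshold on a measured value: H2-K1, H2-D1, H2-T23, B2m, Tap1, Tap2, Tapbp, Tapbpl, Erap1 and Nlrc5, which are 10 of the 23420 genes in the files. There were 3 CpG-stimulated and 3 unstimulated samples of bead-purified B cells, numbered 1 to 3 in each group. The treatment notes name 3 mice of 7 to 11 weeks as the source, and numbers 1 and 2 were labeled female and number 3 male. Both groups were wild type and carried no transgene or deletion.

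MHC class I molecules show peptides from inside the cell to CD8+ T cells. The proteasome and cytosolic peptidases cut proteins into peptides, the TAP1-TAP2 transporter moves these into the endoplasmic reticulum (ER), ERAP1 trims them, and tapasin (Tapbp) and its relative TAPBPR (Tapbpl) help to load and edit them on a heavy chain bound to β2-microglobulin (B2m). H2-K1 and H2-D1 encode classical heavy chains, H2-T23 encodes the non-classical Qa-1 heavy chain, and NLRC5 is a transactivator of class I genes that acts at their SXY promoter module. In B cells, class I molecules are present at rest, and class I genes are known targets of NF-κB and interferon signaling.

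Promoter sequences are shown first for the heavy chain, light chain and trimming genes, as the regulators described further on act through motifs of this kind. Windows from 250 bases before to 50 after an annotated start were present in RefSeq (GRCm38.p6) for 7 members. Each stretch is given 5′ to 3′ on the strand of the gene. Capitals mark the NF-κB consensus, the ISRE-like motif (GAAA, any 2 bases, GAAA) and the X2-box core of the SXY module (TGACGC), all searched on both strands. The H2-K1 stretch is at chr17:34000334-34000483 (minus strand), H2-D1 at chr17:35262899-35263048 (plus), H2-T23 at chr17:36032702-36032851 (minus), B2m at chr2:122147537-122147686 (plus) and Erap1 at chr13:74639733-74639862 (plus). RefSeq and GENCODE starts differ, and the stretches of Erap1, H2-D1 and H2-T23 lie within the GENCODE coordinates given further on. The marked Erap1 motif spans its RefSeq start, from -4 to 6.
H2-K1: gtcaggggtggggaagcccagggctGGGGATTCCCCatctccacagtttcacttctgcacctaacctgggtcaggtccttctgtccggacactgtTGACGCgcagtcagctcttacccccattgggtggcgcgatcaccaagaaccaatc
H2-D1: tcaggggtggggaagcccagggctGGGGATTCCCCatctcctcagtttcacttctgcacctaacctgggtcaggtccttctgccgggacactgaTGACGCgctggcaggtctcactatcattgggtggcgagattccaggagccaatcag
H2-T23: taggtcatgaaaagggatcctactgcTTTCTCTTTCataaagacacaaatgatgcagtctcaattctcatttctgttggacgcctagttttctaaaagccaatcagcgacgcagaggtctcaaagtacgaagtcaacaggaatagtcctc
B2m: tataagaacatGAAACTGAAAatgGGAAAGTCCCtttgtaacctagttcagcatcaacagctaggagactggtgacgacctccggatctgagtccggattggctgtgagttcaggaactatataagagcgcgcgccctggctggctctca
Erap1: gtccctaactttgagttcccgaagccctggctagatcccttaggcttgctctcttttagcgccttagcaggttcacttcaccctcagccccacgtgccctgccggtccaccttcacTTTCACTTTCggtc

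The H2-K1 and H2-D1 windows were close to each other, with 217 of 241 aligned bases identical (90.0%). An NF-κB consensus was in 3 of the 7 members with a window (H2-K1, H2-D1 and B2m) and in 4.51% of all 32851 windows. The ISRE-like motif was also in 3 members (H2-T23, B2m and Erap1) and in 3.44% of all windows. Only exact matches of this string were counted, so H2-K1, H2-D1 and other members without a match may hold a diverged site. The X2-box core was in H2-K1 and H2-D1 and in 7.40% of all windows. The Y box (CCAAT) was in 6 members and 37.4% of windows, and the GAS motif (TTCNNNGAA) was in 0 members and 8.30% of windows. Of the members with an ISRE-like match, Erap1 rose, and H2-T23 and B2m fell. Any part of the motifs in these changes was not tested. In H2-K1 and H2-D1 each NF-κB stretch holds a pair of overlapping matches. These are matches of letters in the C57BL/6J reference. BALB/c carries the d haplotype of the H2 region, whose alleles are not in this reference.

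The deposited values are log2 CPM that the authors quantile normalized and transformed with voom. They also carry a shift by replicate number that the methods do not name, as seen in genes without reads: H2-T22 was at -5.10, -5.23 and -5.12 in replicates 1 to 3 of both groups. A shift common to both samples of a number leaves the log2FC as it is but changes the spread within groups, so SEs and FDRs take no account of that step. A gene without reads lies at -5.15 log2 CPM, which corresponds to 17.8 M reads on genes, and values of a sample sum to between 992384 and 1012396 CPM. Quantile normalization makes the distributions alike, so depth per sample and a change in total RNA per cell cannot be read from the values. The test between groups was that of limma, with p values adjusted by Benjamini-Hochberg (FDR) over the 11233 genes that had at least 10 reads' worth (-0.76 log2 CPM) in at least 3 samples; all 10 members were tested. The log2FC is the stimulated minus the unstimulated mean, so a negative value is a lower level after CpG. In these bulk samples fewer cells of a type and less RNA per cell cannot be told apart. The labels do not say that the samples came from separate cultures beyond their 3 mice, and p values measure the spread between these samples.

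After 4 hours with CpG, 8 of the 10 members were lowered, 1 (Erap1) was raised, and Nlrc5 did not pass the test. The count of lowered members was 5 without unstimulated replicate 1, 5 in the female pairs alone and 4 with no filter on low values. The lowered members fell by 0.23 to 0.65 on the log2 scale, with linear changes from -14.5% to -36.2%. At the same FDR of 0.05, 36.7% of all genes tested were lowered and 37.6% were raised. The median log2FC of the members was -0.31, beside 0.00 (0.00333) over all genes tested. No member passed a log2FC of 1 in either direction, which 15.8% of all genes did upward and 15.3% downward. All stimulated samples lay below all unstimulated samples in 8 members (38.6% of genes tested) and above them in 1 member (39.1% of genes tested). The changes of the members were thus of ordinary size for this comparison, as H2-T23, with the most negative log2FC, had 24.1% of all genes tested below it and Erap1 had 79.7% below it.

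**Figure D1:**
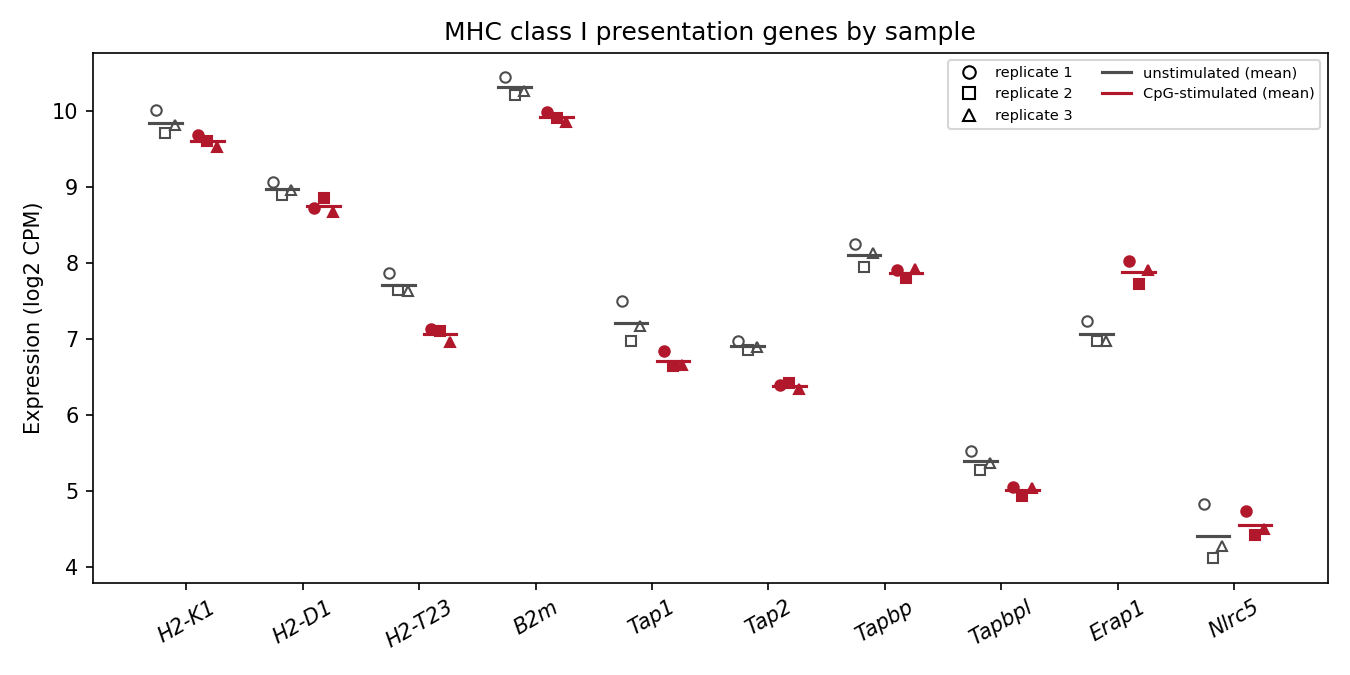
Expression in log2 CPM (vertical axis) of the 10 genes in each of 3 unstimulated (open, grey) and 3 CpG-stimulated (filled, red) samples, with a symbol per replicate number and a bar at the group mean. Red points lie below all grey points in 8 genes, above them in Erap1 and among them in Nlrc5, and unstimulated replicate 1 is the highest unstimulated sample in each gene.

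Of the heavy chains, H2-K1 had 10.01, 9.71 and 9.82 log2 CPM in unstimulated replicates 1 to 3 and 9.69, 9.60 and 9.53 in stimulated replicates 1 to 3. The groups do not overlap, but the highest stimulated and the lowest unstimulated sample lie close together. H2-K1 fell by 0.24 (SE 0.09, FDR = 0.0277 from limma), a linear change of -15.3%. H2-D1 had 9.07, 8.90 and 8.96 in unstimulated and 8.72, 8.85 and 8.67 in stimulated samples. It fell by 0.23 (SE 0.07, FDR = 0.0144 from limma), with its smallest difference, -0.05, between the samples numbered 2. Both calls depended on single samples. Without unstimulated replicate 1 the log2FC of H2-K1 was -0.16 (FDR = 0.111 from limma) and that of H2-D1 -0.18 (FDR = 0.0618 from limma), and without CpG-stimulated replicate 3 they were -0.20 (FDR = 0.102) and -0.19 (FDR = 0.0659), both from limma.

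The non-classical heavy chain gene H2-T23 encodes Qa-1, which presents a leader peptide of other class I molecules to receptors of NK cells and T cells. It had 7.87, 7.64 and 7.63 log2 CPM in unstimulated and 7.13, 7.11 and 6.96 in stimulated samples. The gap between the groups was wide compared with the spread within them. H2-T23 fell by 0.65 (SE 0.08, FDR = 4.25e-05 from limma), a linear change of -36.2%, and its log2FC stayed between -0.69 and -0.57 with any 1 sample left out.

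B2m, the light chain shared by all class I molecules, had 10.45, 10.22 and 10.27 log2 CPM in unstimulated and 9.99, 9.91 and 9.86 in stimulated samples. Each stimulated sample was lower than each unstimulated one. It fell by 0.39 (SE 0.08, FDR = 0.00102 from limma), a linear change of -23.7%. The mean of H2-K1 and H2-D1 relative to B2m, taken within each sample, was -0.90 ± 0.02 in unstimulated and -0.74 ± 0.05 in stimulated samples (log2, mean ± SD, n = 3 each). All 3 stimulated samples were above all 3 unstimulated ones, and the means differed by 0.16 (two-sided exact permutation p = 0.1, the smallest p that 3 samples against 3 allow). This test took the samples as unpaired. An exact sign-flip test over pairs of the same number gave p = 0.25, the smallest that 3 pairs allow. Adjusted over the 5 ratios tested, the permutation p was 0.167. With 3 samples a group no ratio could pass, so the test cannot decide whether this ratio changed.

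Both genes of the peptide transporter were lowered. Tap1 had 7.50, 6.98 and 7.18 log2 CPM in unstimulated and 6.84, 6.64 and 6.66 in stimulated samples. The groups do not overlap, and unstimulated replicate 1 stands above the other unstimulated samples. Tap1 fell by 0.50 (SE 0.12, FDR = 0.00304 from limma), a linear change of -29.5%. Tap2 was less variable, with 6.98, 6.86 and 6.90 in unstimulated and 6.40, 6.42 and 6.34 in stimulated samples. It fell by 0.52 (SE 0.06, FDR = 2.78e-05 from limma), a linear change of -30.5%. The Tap1 to Tap2 ratio within samples was 0.31 ± 0.20 without and 0.33 ± 0.11 with CpG (log2, mean ± SD, n = 3 each; difference 0.02, two-sided exact permutation p = 0.9). Relative to the classical heavy chains, the transporter pair went from -2.35 ± 0.04 to -2.63 ± 0.06 (mean ± SD, n = 3 each), a difference of -0.28 in which the groups do not overlap (two-sided exact permutation p = 0.1, adjusted 0.167).

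Tapbp, the tapasin gene, had 8.25, 7.94 and 8.14 log2 CPM in unstimulated and 7.91, 7.80 and 7.92 in stimulated samples. The groups do not overlap, but unstimulated replicate 2 lies close to the highest stimulated sample. Tapbp fell by 0.23 (SE 0.08, FDR = 0.0230 from limma), and without unstimulated replicate 1 by 0.17 (FDR = 0.0956 from limma). Tapbpl had 5.53, 5.28 and 5.37 in unstimulated and 5.05, 4.94 and 5.04 in stimulated samples, lower in each. It fell by 0.38 (SE 0.08, FDR = 0.00211 from limma), a linear change of -23.2%. Tapbp relative to Tapbpl was 2.72 ± 0.05 without and 2.86 ± 0.01 with CpG (log2, mean ± SD, n = 3 each; two-sided exact permutation p = 0.1, adjusted 0.167). Without unstimulated replicate 3 the FDR of H2-K1 was 0.0547 and that of Tapbp 0.0691, both from limma.

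Erap1, the ER aminopeptidase that shortens peptides to the length that class I molecules bind, was the only member that rose. It had 7.24, 6.98 and 6.98 log2 CPM in unstimulated and 8.03, 7.72 and 7.91 in stimulated samples. All stimulated samples were well above all unstimulated ones, and all 3 pairs with the same number moved up, by 0.74 to 0.93. The log2FC was 0.82 (SE 0.10, FDR = 2.66e-05 from limma), a ratio of 1.77, and it ran from 0.75 to 0.91 with any 1 sample left out. Of the exon bases of Erap1, 14.8% are also exon bases of Cast, the calpastatin gene on the opposite strand, which fell by 0.78 (FDR = 0.000669 from limma). The labels name a TruSeq mRNA kit and the methods of the study a stranded form of it, but whether counting used the strand is not given in the sources used here. Without strand, reads of the shared bases cannot be assigned to one of these genes. The same holds for 23.5% of the exon bases of Tapbp (shared with Gm19412) and 15.0% of those of Tap2 (shared with Gm15821). Both partners are on the opposite strand and have no values here.

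Nlrc5 had 4.83, 4.11 and 4.27 log2 CPM in unstimulated and 4.74, 4.43 and 4.51 in stimulated samples. The groups overlap, as unstimulated replicate 1 was the highest of all 6 samples. Its log2FC of 0.15 (SE 0.17, FDR = 0.436 from limma) had a 95% interval from -0.23 to 0.53. Without unstimulated replicate 1 the log2FC was 0.36 and passed (FDR = 0.0240 from limma). Without the other samples in turn it ran down to 0.01 and did not pass.

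**Figure D2:**
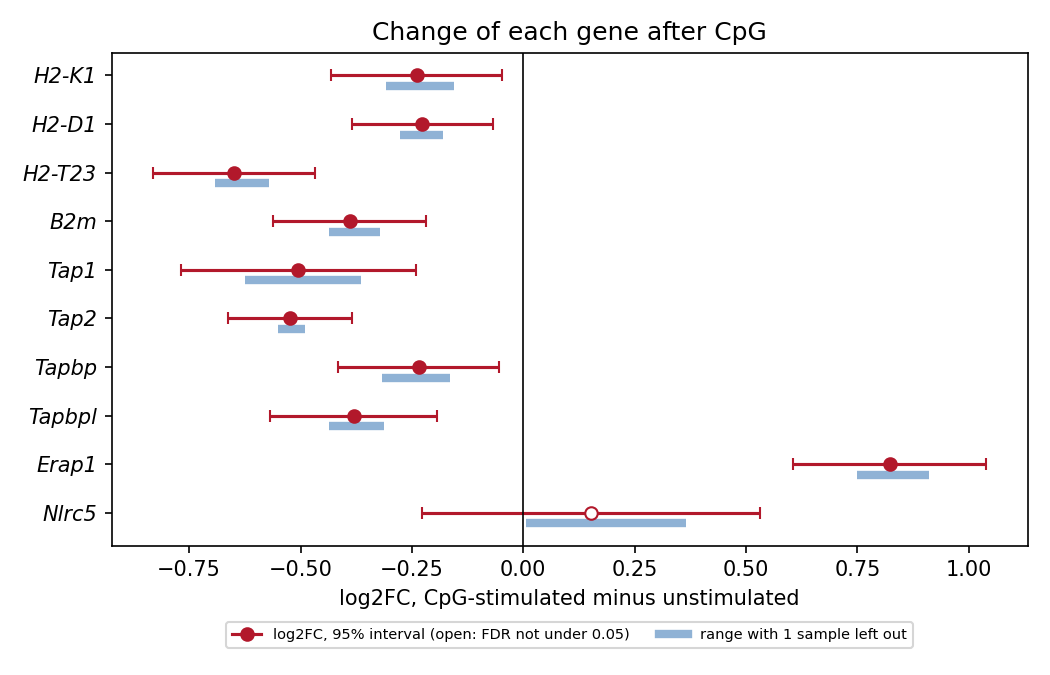
Log2FC of each gene (horizontal axis, CpG-stimulated minus unstimulated) with its 95% interval from limma, and below it in blue the range of log2FC with 1 sample left out. Erap1 stands at 0.82, the 8 lowered genes lie between -0.65 and -0.23, and the interval of Nlrc5 spans 0.

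Unstimulated replicate 1 was the highest unstimulated sample in all 10 members, against 36.4% of genes tested, and CpG-stimulated replicate 1 was the highest of its group in 7. Samples with the same number vary together in these files, and 4426 genes have a value under that of a gene without reads, which voom alone does not give. The part of the unnamed shift in the calls was not tested. With replicate number as a block in the model, each member kept its call, and the FDR of Nlrc5 was 0.157.

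Levels were compared between members per kb of exon, in log2 CPM per kb. In unstimulated B cells the order was B2m (10.53 ± 0.12, mean ± SD, n = 3), H2-K1 (9.12 ± 0.16), H2-D1 (7.90 ± 0.08), H2-T23 (7.16 ± 0.14), Tapbp (6.57 ± 0.15), Tap1 (5.66 ± 0.26), Tap2 (5.13 ± 0.06), Erap1 (4.57 ± 0.15), Tapbpl (4.16 ± 0.13) and Nlrc5 (1.39 ± 0.38). No neighbours in this order overlapped in their samples. By these values the light chain stood above each heavy chain, and the transactivator was by far the lowest. The lengths take in all annotated exons, and the heavy chain levels are uncertain for the reasons given below. The spread between samples does not measure either. After CpG, Erap1 (5.39 ± 0.16, n = 3) moved above Tap1 (5.15 ± 0.11) and Tap2 (4.60 ± 0.04). Erap1 and Tap1 then overlapped in their samples, and they were the only neighbours to do so. The gap between H2-T23 (6.51 ± 0.10) and Tapbp (6.34 ± 0.06) narrowed from 0.58 to 0.17.

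**Figure D3:**
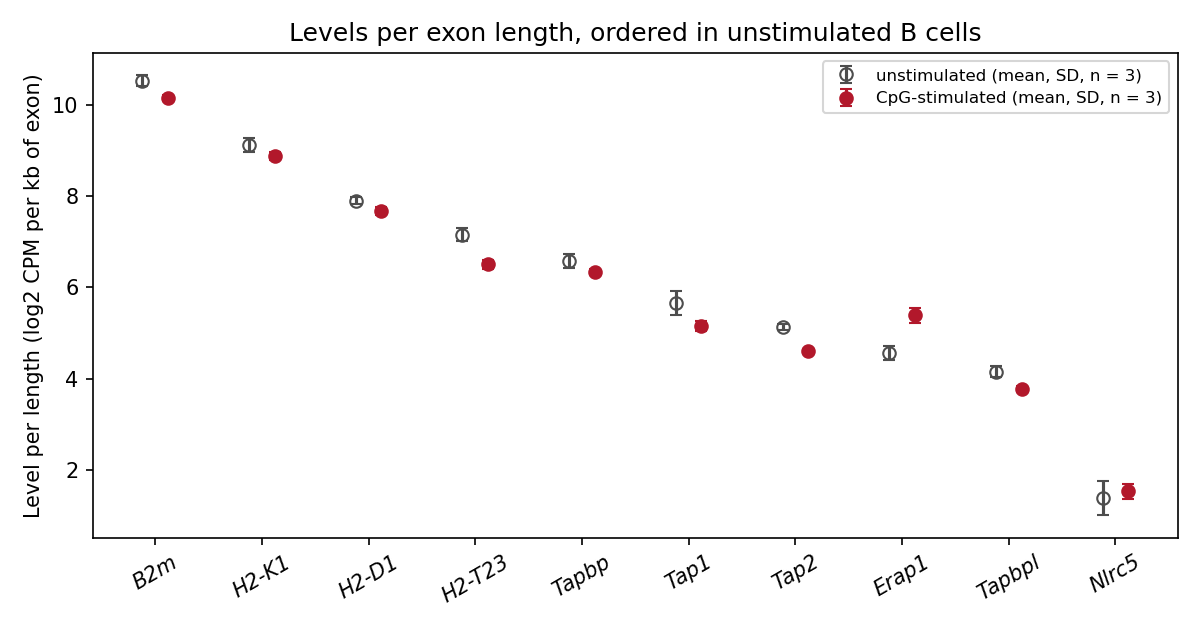
Level per exon length (vertical axis, log2 CPM per kb; mean and SD of 3 samples) of the members in unstimulated (open) and CpG-stimulated (filled) B cells, in the order of the unstimulated level. B2m is highest at 10.53 and Nlrc5 lowest at 1.39 without CpG, and with CpG Erap1 goes from below Tap2 to above Tap1.

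How far reads of paralogs can be told apart bears on the heavy chains. Of all 75-base stretches in the annotated coding transcripts (GENCODE M21), 1.12% of those of H2-K1, 6.15% of those of H2-D1 and 13.1% of those of H2-T23 also occur in another gene. For B2m, Tap1, Tap2, Erap1 and Nlrc5 the share was 0. Reads of BALB/c heavy chain alleles were aligned to the alleles of another haplotype, so levels of H2-K1, H2-D1 and H2-T23 are uncertain, whereas the alleles are the same in both groups. H2-L, a classical heavy chain gene that BALB/c mice carry, is listed in the files but lay between -3.18 and -0.89 log2 CPM and did not enter the test. It had 0 stretches in these transcripts, so the low values are no measure of its level. Whether its reads were counted under other heavy chains such as H2-D1 is not known.

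Members share their location in part. In GRCm38 (GENCODE M21), 6 are on chromosome 17: Tapbp (33915899 to 33929292), H2-K1 (33996017 to 34000347), Tap1 (34187553 to 34197225), Tap2 (34203527 to 34216321), H2-D1 (35262730 to 35267499) and H2-T23 (36029773 to 36032855). All 6 were lowered, as were 40.2% of the 92 other genes tested between the outermost of them and 36.7% of all genes tested. B2m is on chromosome 2 (122147686 to 122153083), Tapbpl on chromosome 6 (125223933 to 125231860), Nlrc5 on chromosome 8 (94434356 to 94527272) and Erap1 on chromosome 13 (74639568 to 74693201).

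**Figure D4:**
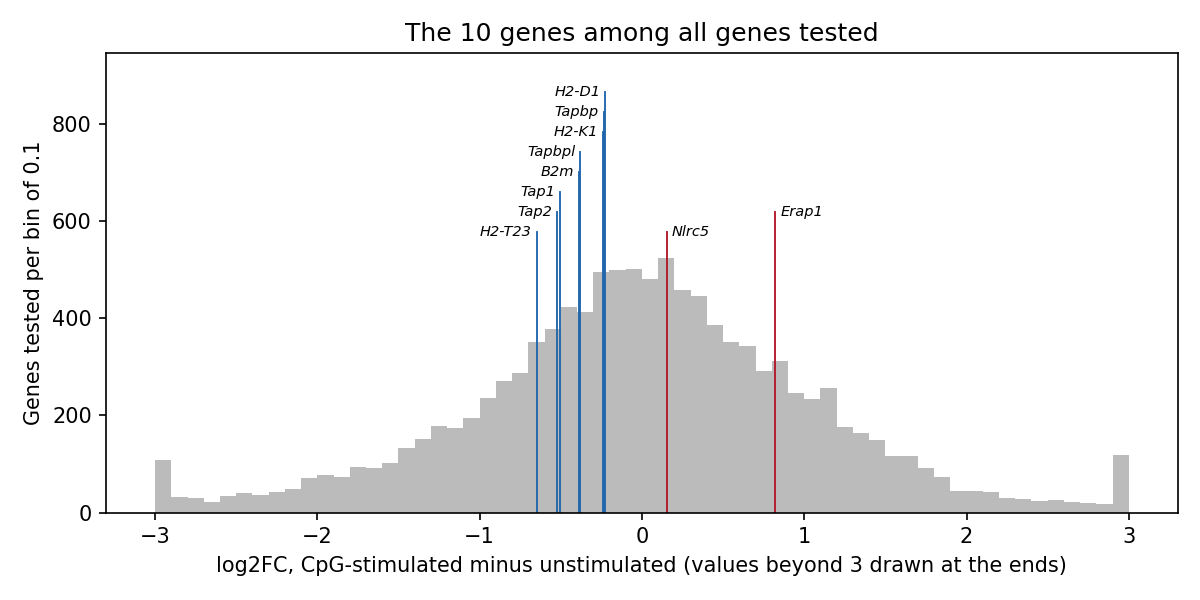
Distribution of the log2FC (horizontal axis) over the 11233 genes tested (vertical axis, genes per bin of 0.1), with the members marked. Members from H2-T23 at -0.65 to Erap1 at 0.82 lie within the bulk of the distribution.

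Other genes of the class I pathway were taken from lists by function. Among 25 further heavy chain genes, 24 were listed in the files and 11 passed the filter. Of these 11, 4 were lowered and 0 raised, beside 36.7% of all genes tested lowered and 37.6% raised. The share lowered is near that of all genes tested. H2-T10 fell by 0.91 (SE 0.16, FDR = 0.000510), H2-M3, whose product presents formylated peptides, by 0.69 (SE 0.09, FDR = 3.88e-05), H2-K2, annotated as a pseudogene, by 0.37 (SE 0.09, FDR = 0.00398) and H2-Q4 by 0.33 (SE 0.08, FDR = 0.00306), all from limma. Values that did not pass were 0.33 for H2-Bl, 0.33 for H2-T3, 0.12 for H2-Q5, 0.08 for H2-Q10, 0.02 for H2-Q1, -0.01 for H2-Q2 and -0.16 for H2-T24. Another 9 were at the value of no reads in each of the 6 samples, among them H2-Q6, H2-Q7, H2-Q8 and H2-Q9, the genes of the Qa-2 antigen. H2-T22, whose values carry the shift by replicate number, is not among these 9. H2-Q8, H2-Q9 and H2-T9 had 0 stretches in the reference transcripts. Of the stretches of H2-Q6 17.9% and of H2-Q7 22.6% also occur in other genes. Such values are no measure of Qa-2 expression in BALB/c cells. In the reference 20.7% of stretches of H2-T10 also occur in H2-T22, which was near the level of no read in each sample, so values of these near-identical copies are uncertain.

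Class I-like molecules resemble class I heavy chains in fold and serve other functions. Of 7 listed, 3 passed the filter, and their levels were low. Mr1 and Fcgrt were under 10 reads' worth in all stimulated samples and passed only through the unstimulated group, so that they had to differ, and their number is no support for a change of the list. Mr1, which presents vitamin B metabolites to MAIT cells, had 1.77, 1.14 and 1.74 log2 CPM in unstimulated and -1.24, -1.75 and -2.02 in stimulated samples (log2FC -3.22, SE 0.34, FDR = 1.14e-05 from limma). Cd1d1, which presents lipids to NKT cells, had 2.89, 2.53 and 2.66 without and 0.75, 0.16 and -0.47 with CpG (log2FC -2.55, SE 0.29, FDR = 2.12e-05 from limma). Fcgrt, the heavy chain of the neonatal Fc receptor, had a log2FC of -2.63 (SE 0.42, FDR = 0.000232 from limma). The size of the changes of Mr1 and Fcgrt is uncertain at these levels.

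The proteasome genes moved in both directions. Counts of calls here stand beside 37.6% of all genes tested raised and 36.7% lowered. Psmb8 and Psmb10, catalytic subunits of the immunoproteasome, fell by 0.72 (SE 0.08, FDR = 1.31e-05) and 0.76 (SE 0.11, FDR = 9.43e-05 from limma). Psmb9, the third such subunit, had a log2FC of -0.32 (FDR = 0.0770 from limma), and it passed with the replicate block (FDR = 0.00666). It shares 7.18% of the exon bases of Tap1 on the opposite strand. Psme2 and Psme1, which form the PA28 activator, rose by 1.47 (SE 0.07, FDR = 6.25e-08) and 0.30 (SE 0.07, FDR = 0.00212 from limma). All 3 catalytic subunits of the constitutive proteasome rose, with log2FC values of 0.93 for Psmb7, 0.88 for Psmb5 and 0.84 for Psmb6. Among 8 cytosolic peptidases 4 rose, led by Thop1 (2.62) and Lap3 (1.71), and 3 fell, led by Nrd1 (-0.69) and Npepps (-0.50).

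Of the 6 chaperones of the ER that take part in loading or folding, 3 rose and 1 fell, beside 37.6% of all genes tested raised and 36.7% lowered. Calr, the calreticulin gene of the peptide-loading complex, had 9.42, 9.40 and 9.20 log2 CPM in unstimulated and 8.64, 8.85 and 8.66 in stimulated samples, and fell by 0.62 (SE 0.08, FDR = 6.32e-05 from limma). Pdia3, the oxidoreductase of the same complex, had a log2FC of -0.0017 (SE 0.06, FDR = 0.982 from limma), and P4hb one of 0.095 (FDR = 0.128 from limma). Canx, which holds new heavy chains, rose by 0.30, Hspa5 by 0.33 and Pdia6 by 0.53. Of 12 tested genes in trafficking and quality control, 5 rose, led by Hm13, listed as H13 (1.19), and Erp44 (1.02), and 3 fell, led by Mfsd6 (-2.42, from low levels) and Bcap31 (-0.73), a sorting receptor of the ER.

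Of 19 regulators of class I transcription tested, 7 rose, 5 fell and 7 did not pass, beside 37.6% of all genes raised and 36.7% lowered, and with the replicate block 8 fell, Irf1 (FDR = 0.0198), Nfya (0.0497) and Ciita (0.0421) being added. Nfkb1, an NF-κB subunit, rose by 1.71 (SE 0.11, FDR = 3.05e-07 from limma) and Irf8 by 1.65 (SE 0.07, FDR = 4.05e-08 from limma). The other NF-κB subunits of this list moved in both directions. Nfkb2 rose by 1.04 (FDR = 2.55e-06), Relb fell by 0.46 (FDR = 0.000164) and Rela fell by 0.18 (FDR = 0.0274), all from limma. Irf2, which binds interferon response elements, had 8.20, 8.06 and 8.22 log2 CPM without and 6.45, 6.77 and 6.76 with CpG (SE of the difference 0.09, FDR = 2.67e-07 from limma) and Stat2, a part of the interferon-activated complex ISGF3, fell by 1.01 (SE 0.13, FDR = 4.36e-05 from limma).

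**Figure D5:**
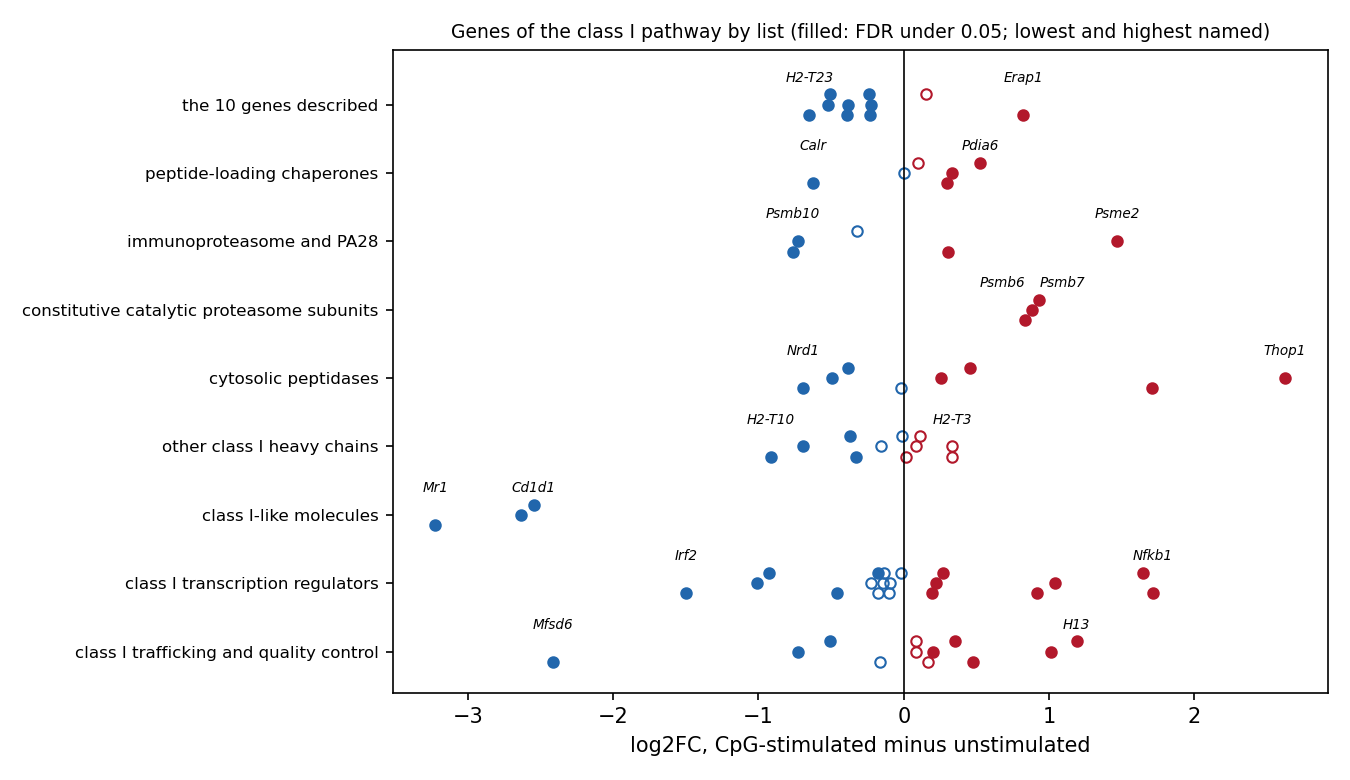
Log2FC (horizontal axis, CpG-stimulated minus unstimulated) of each tested gene, by list; filled points passed an FDR of 0.05, blue points are below 0 and red points above, and the lowest and highest gene of a list are named. Filled points of the other class I heavy chains and of the class I-like molecules that passed the filter lie only below 0, those of the constitutive proteasome subunits only above 0, and those of the other lists on both sides. Of the class I-like molecules, Mr1 and Fcgrt passed the filter only through the unstimulated group, so they had to lie below 0.

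Markers of B cells were present in all samples. With CpG, Cd79a, Cd79b, Cd22 and Pax5 were lowered (log2FC -1.63, -1.17, -2.40 and -0.32) and Ms4a1 was raised (log2FC 0.77). Their part in the changes of the members was not tested. Of 6 T cell markers 0 entered the test, and their sum was at most 0.632 CPM. Markers of NK cells summed to 1.51 to 3.43 CPM and of myeloid cells to 7.52 to 15.8 CPM over all samples. The dendritic cell markers summed to 21.1 to 26.1 CPM without and to 64.5 to 70.0 CPM with CpG. Nearly all of this sum was Zbtb46, with a mean of 4.43 log2 CPM without and 6.06 with CpG. Of these 5 markers Zbtb46 was raised (log2FC 1.62), Ccr9 was lowered (log2FC -0.94, FDR = 0.0158 from limma), and Siglech, Xcr1 and Clec9a did not enter the test. Erythroid markers were spread from 47.1 to 448 CPM, highest in replicate 2 of both groups.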

How the data were processed

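RNA-seq of 3 CpG-stimulated and 3 unstimulated samples was used, grouped by their labels. The submitters' processing notes name STAR 2.6.1a, featureCounts (Subread 2.0.1), limma and mm10. By the general RNA-seq methods of the study, which describe another mouse strain, the authors used paired reads of 75 bases and quantile normalized and voom transformed the counts per gene. The deposited values are log2 CPM, and no counts were used here. The values were tested as they are with limma 3.58.1 in R 4.3.3 (lmFit, eBayes with a trend), two-sided, with Benjamini-Hochberg adjustment over the 11233 genes that reached the level of 10 reads in 3 or more samples. Depth per sample is unknown, so no counting intervals are given. The fit was tested on simulated data with independent samples. These held no pairing and no shift by replicate number, so the simulation cannot show how those bear on the FDRs. The members were chosen by symbol, and members, lists and tests were set with earlier results of these data known. All members, chaperones, immunoproteasome genes and tested heavy chains are named, and of each other list the 2 genes with the highest and the 2 with the lowest log2FC among those past the FDR, which takes in all genes of a list with 3 calls. The other NF-κB subunits among the regulators are named in addition. Ratios within samples were compared by exact permutation tests that took the samples as unpaired (scipy 1.17.1). As an alternative, the signs of the differences within pairs of the same number were flipped.

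Replicate numbers were taken to pair the samples, since the labels name 3 mice and sexes match by number. Each pair also passed a correlation of 0.1. The shift by replicate number can give this by itself, so it is no separate support for the pairing. Deviations from group means correlated across genes at 0.435, 0.224 and 0.300 for samples of the same number, and at -0.281 to 0.0279 for the others. Alternatives were the filter, the replicate block, log2(CPM + 1), the trend, centring, females only and each sample left out. Exon lengths, positions and transcripts are from GENCODE M21, and promoter sequences from RefSeq. Older symbols were matched through RefSeq synonyms, and H2-D2 was not matched. A B cell marker is not reported here.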

Additional observations from a re-analysis of the deposited data

Results flagged for a closer look

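In 4 tested genes of the pathway lists the male pair of samples (number 3) moved against both female pairs (numbers 1 and 2). The difference between the sexes was not tested, as there was 1 male pair, and each of these genes did not pass between the groups. Stimulated minus unstimulated values on the log2 scale were 0.358 and 0.740 in the female pairs and -0.109 in the male pair for H2-Bl, and 0.027 and 0.289 against -0.066 for H2-Q10. For Nfyb they were -0.034 and -0.036 against 0.015, and for Nfyc -0.102 and -0.201 against 0.013. None of the 10 members showed this. Groups of 3 samples were not examined for single outlying samples.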

How the results depend on the processing

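The alternatives gave 140 values for the 10 genes, of which 123 had the same direction and call, 16 lost the call, 1 gained it and 0 changed sign. The lost calls were in H2-K1 (6 of 14 alternatives), Tapbp (5), H2-D1 (4) and Tap1 (1), and the gained one was in Nlrc5. The number of members lowered, 8, was 4 with no filter on low values and 5 with females only (neither sample numbered 3), and 5 to 8 without each sample in turn, the lowest without unstimulated replicate 1. Members raised were 1 to 2, the 2 without unstimulated replicate 1. H2-K1 and Tapbp also lost their call without a variance trend (FDR 0.0709 and 0.0666 from limma), and Tap1 with no filter (FDR 0.0728 from limma). Females only leaves 2 samples a group; the cause of the other losses was not tested. The replicate block changed no call of a member, and beside the genes named in the report as changed by it no other call of a named gene, with 4390 genes raised and 4287 lowered over all genes. The H2-K1 to H2-D1 ratio, a difference of -0.01, ran from -0.0683 to 0.0402 without each sample in turn, with a changed sign without CpG-stimulated replicate 2 and without unstimulated replicate 1 (0.0257). The Tap1 to Tap2 ratio, 0.02, ran from -0.0732 to 0.125, with a changed sign without CpG-stimulated replicate 1 (-0.0405) and without unstimulated replicate 2. The other ratios kept their sign, but with 3 samples a group none could pass. Centring changed no call of a member.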

Other observations

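Genes that lie between the outermost members on chromosome 17 were counted after the values were seen. In the span of 2.12 Mb from 33915899 to 36032855 (GRCm38), 92 genes other than the 6 members there were tested. Of these 40.2% were lowered and 34.8% were raised, beside 36.7% and 37.6% over all genes tested, and their median log2FC was 0.00 (0.00133). The span holds genes with large changes in both directions. Tnf, the gene of the inflammatory cytokine TNF, rose by 3.03 (SE 0.19, FDR = 3.02e-07 from limma) and the related Lta by 2.54 (SE 0.12, FDR = 5.67e-08 from limma). The most negative values were those of Hspa1b, a heat shock protein gene, at -2.43 (SE 0.45, FDR = 0.000691 from limma) and Gpsm3 at -2.26 (SE 0.11, FDR = 6.95e-08 from limma).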
